A study of Mus musculus with 48 samples.

Results

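Binding of CTCF and cohesin was examined around 6 widely used trophoblast marker genes, Cdx2, Elf5, Tfap2c, Gata3, Krt8 and Krt18, in a CTCF mutant series of mouse embryonic stem cells. Peaks were assigned by position: a peak belonged to a gene when it lay within 50 kb of the gene's span in mm10. Of 21887 protein-coding genes in the RefSeq table these are 6, and their windows held 1318 of the 1444924 peaks in 22 lists. The windows of Krt8 and Krt18 overlap, because only 23873 bp separate the genes, so 76127 bp and every peak in them count for both keratins but only once in totals.

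All cells were E14Tg2a embryonic stem cells of strain 129/Ola whose endogenous CTCF carries an auxin degron. Into them a stable doxycycline-inducible, FLAG-tagged Ctcf transgene had been placed, either 1 of 9 mutants or the wild-type control (WT), 1 line each. Each mutant is named by the residue it changes: R339Q and R342C, S354F, K365T, R377C and R377H, then Q418R, R448Q and H455R. In the treated state, 500 µM indole-3-acetic acid (IAA) removes the endogenous protein and 1 µg/ml doxycycline induces the transgene for 2 days. FLAG antibody (transgene CTCF) and SMC3 antibody (cohesin) gave 10 lists each, all from treated cells, and CTCF antibody gave a treated and an untreated list of the WT line. The design sets each mutant beside WT, to see how a change in the DNA-binding domain alters where CTCF and cohesin sit. Libraries were made by ChIPmentation, in which a transposase tags the chromatin while it sits on the antibody beads.

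CTCF is a zinc-finger protein that binds DNA and halts cohesin, the ring complex with SMC3 as a subunit that extrudes chromatin loops. Cdx2, Elf5, Tfap2c and Gata3 encode transcription factors of the trophectoderm and its stem cells, the lineage that builds the placenta and to which embryonic stem cells do not normally contribute. Krt8 and Krt18 encode the keratin partners of simple epithelia, which pair into filaments and are among the earliest keratins of the trophectoderm. No expression was measured here, so the peaks say nothing of whether the genes were transcribed. The windows also hold other protein-coding genes, namely Pdx1, Urad and Flt3 around Cdx2, Cat beside Elf5, Taf3 beside Gata3, and Krt78 and Eif4b around the keratins.

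Each list pools both replicates of its group. There is thus 1 value per group, no spread between replicates and no p-value, and differences between genotypes are given as counts beside the same count over all peaks. Depth per library is unknown from peak lists, and how much transgene protein each line held was not analysed here. Lists differed in length, from 3855 FLAG peaks in H455R and 13151 to 30462 in the other mutants to 15392 in WT, and from 42030 (Q418R) to 153647 (R448Q) SMC3 peaks in mutants to 71962 in WT. Both Q418R lists were deposited with 42030 lines, but the FLAG lines repeat intervals and merge to 30332 peaks while the SMC3 lines do not. The strength of a peak is given as its percentile in its own list, by the authors' peak score, because scores of different lists cannot be compared. Percentiles depend on list length too, since the same rank gives a higher percentile in a longer list. A WT peak was called kept in a mutant when a mutant peak of the same antibody overlapped it by at least 1 bp.

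Promoter sequences are shown first where peaks bear on them. The promoter of Krt8 and a second, internal promoter of Elf5 lay under CTCF antibody peaks, and the Krt18 promoter is given as the keratin partner that did not. They run from 250 bases before to 50 after the RefSeq start (GRCm38.p6, the assembly that mm10 names), at chr15:102004293-102004592 on the minus strand, chr2:103423818-103424117 on the plus strand and chr15:102027966-102028265 on the plus strand. Capitals mark AGNNGGC, the inner part of the CTCF core motif, on either strand.
Krt8 promoter: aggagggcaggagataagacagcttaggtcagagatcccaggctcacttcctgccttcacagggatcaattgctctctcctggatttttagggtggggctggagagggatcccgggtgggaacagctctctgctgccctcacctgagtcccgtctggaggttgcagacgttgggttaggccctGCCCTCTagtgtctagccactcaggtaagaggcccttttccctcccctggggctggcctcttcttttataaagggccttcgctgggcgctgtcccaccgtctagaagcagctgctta
Elf5 internal promoter: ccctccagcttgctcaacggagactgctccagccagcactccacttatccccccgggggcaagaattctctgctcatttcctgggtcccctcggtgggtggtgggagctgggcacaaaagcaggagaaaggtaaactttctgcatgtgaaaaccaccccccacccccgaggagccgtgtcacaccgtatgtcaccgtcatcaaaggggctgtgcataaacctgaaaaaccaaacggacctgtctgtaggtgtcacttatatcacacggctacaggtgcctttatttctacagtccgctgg
Krt18 promoter: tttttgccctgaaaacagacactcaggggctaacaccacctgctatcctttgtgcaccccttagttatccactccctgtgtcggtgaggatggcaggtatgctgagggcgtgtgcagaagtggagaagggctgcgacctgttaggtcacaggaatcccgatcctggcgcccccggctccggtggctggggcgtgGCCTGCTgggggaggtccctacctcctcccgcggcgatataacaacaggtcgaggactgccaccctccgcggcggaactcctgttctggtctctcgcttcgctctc
The Krt8 promoter held 1 match, beginning 67 bases before the start, and the Krt18 promoter held 1, beginning 56 bases before it, both on the strand opposite to the one printed. The internal Elf5 promoter held none. These letters are common: 59.8% of 32851 promoters of this length held at least 1 match. A match describes letters and is not a binding site.

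In WT cells, 15 FLAG peaks lay in the windows, 6 around Cdx2, 4 around Elf5, 4 around the keratins, 1 near Tfap2c and none near Gata3. Sites are named by the nearest of the 6 genes and numbered along the chromosome. At 14 of the 15 (93.3%) a WT SMC3 peak was present, against 81.2% of all WT FLAG peaks. All 15 also lay at a CTCF antibody peak in treated cells and in untreated cells, where 91.1% and 91.2% of all WT FLAG peaks did. They ranged from percentile 7.5 to 97.7 of the WT list with a median of 68.5, and their median width was 394 bp, against 250 bp over all WT FLAG peaks. Only 3 lay inside a member gene, and all of these were in Elf5. Having a WT FLAG peak within 50 kb was itself common, at 63.3% of protein-coding genes.

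Mutant FLAG proteins kept a large part of these sites, with H455R far below the others. R377C and S354F kept all 15 of 15, where the share over all WT FLAG peaks was 89.6% and 86.2%. R448Q kept 13 (background 75.2%), and R339Q, R342C and R377H kept 12 each (53.1%, 72.2% and 71.8%). Q418R kept 11 (59.2%), K365T kept 9 (52.1%) and H455R kept 4 (10.5%). The share near the 6 genes was above the background in 9 of 9 mutants, but the background lay outside the 95% Wilson interval only for R339Q (54.8 to 93.0%) and H455R (10.9 to 52.0%). Wilson intervals count peaks as if they were independent and cover counting error only.

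**Figure D1:**
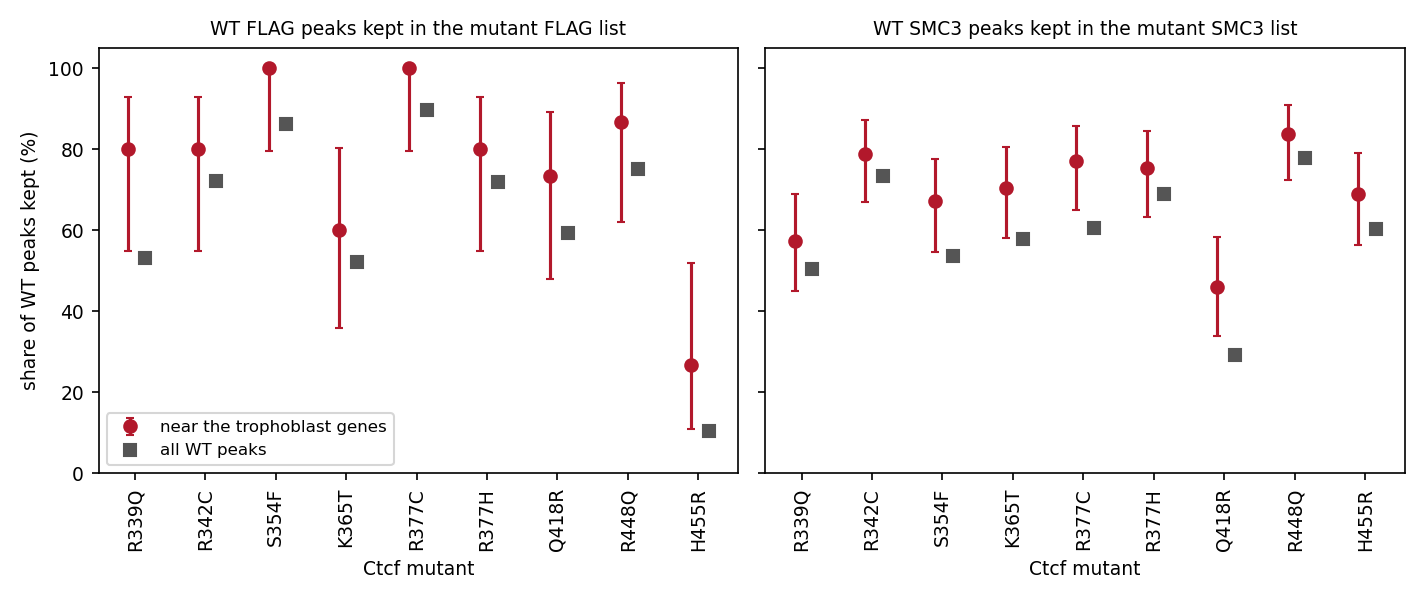
Share of WT peaks that overlap a peak of the mutant list, for FLAG (left) and SMC3 (right), by mutant; red points are peaks within 50 kb of the 6 genes with 95% Wilson intervals (15 FLAG and 61 SMC3 WT peaks), grey squares are all WT peaks. Points near the genes lie above the squares in every mutant, and H455R has the lowest FLAG share (26.7%).

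Sites with cohesin and CTCF antibody signal were kept more often than the average WT FLAG peak across the genome in every mutant except H455R, and 14 of the 15 were of that kind. Of these 14, S354F and R377C kept 14 each, where the 12309 WT FLAG peaks with WT SMC3 and a treated CTCF antibody peak were kept at 95.7% and 98.2%. R448Q kept 12 (82.6%), and R339Q, R342C and R377H kept 11 each (60.5%, 82.3% and 80%). Q418R kept 10 (64.7%), K365T kept 8 (58.4%) and H455R kept 4 (9.52%). Against that set the share near the 6 genes was below the genome in R342C, K365T and R377H and above it in the other 6 mutants. The H455R list is the shortest. When every FLAG list was limited to its 3855 strongest peaks, WT had 6 sites in the windows and H455R kept 4 of them, as R339Q, K365T, R377C and R377H did. S354F kept 6, R342C 5, R448Q 3 and Q418R 2. In the upper 50% of each list by score, H455R kept 1 of 11, and the others kept 6 (K365T) to 11 (S354F and R377C). The share over all WT FLAG peaks was not computed at these 2 settings.

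The 15 sites fell into 3 groups by how many mutants kept them. In all 9 mutants, FLAG was present at 3 sites, all of them at the keratins (20%, background 5.04%). Another 6 were kept in 8 mutants and missing only in H455R (40%, background 24.9%), and these were 3 at Cdx2, 2 at Elf5 and 1 at Krt8. The remaining 6 were kept in 2 to 6 mutants and lay at Cdx2, Elf5 and Tfap2c.

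**Figure D2:**
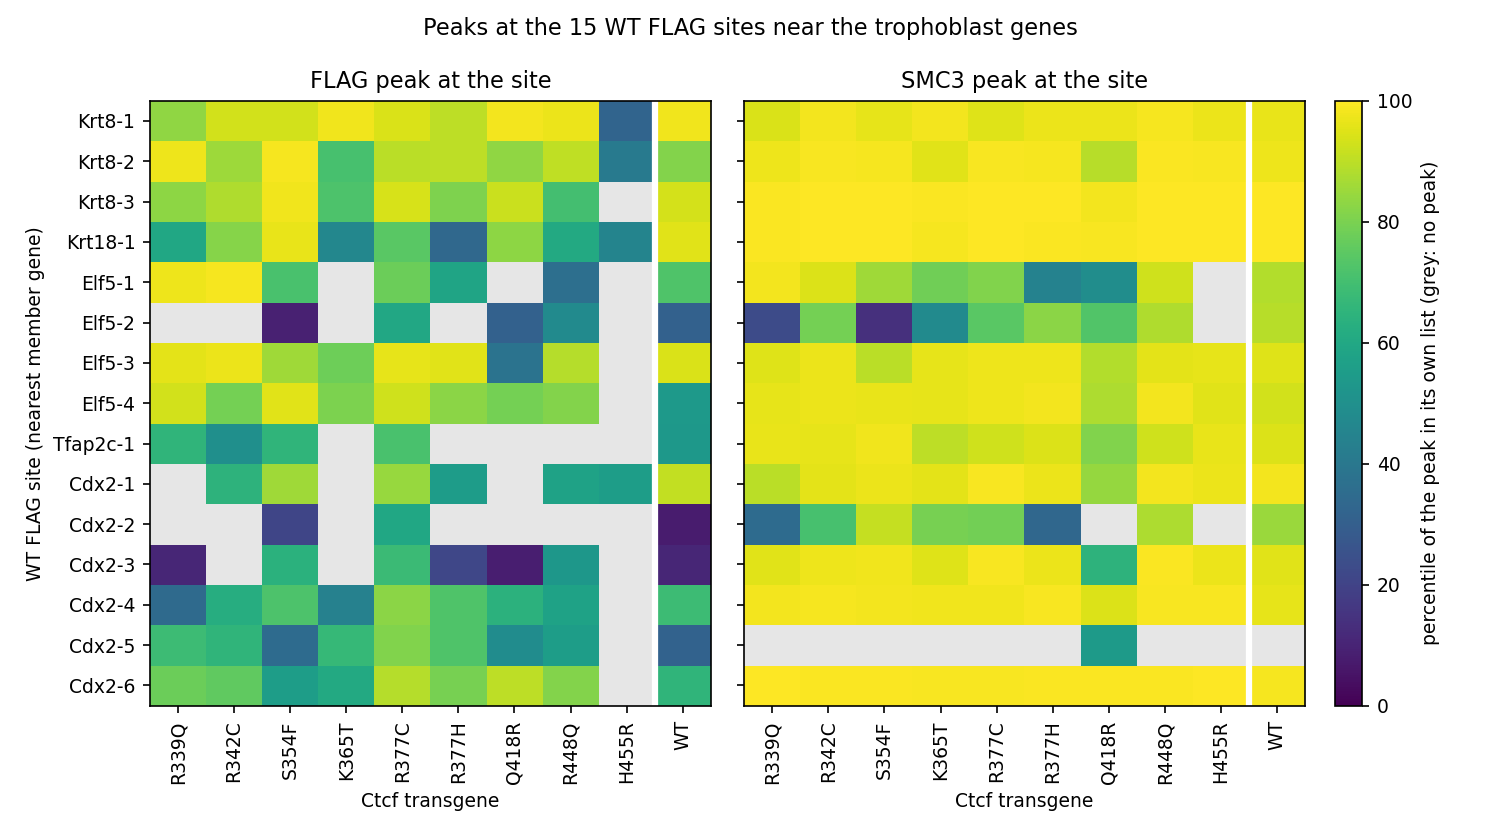
Percentile of the FLAG peak (left) and the SMC3 peak (right) at each of the 15 WT FLAG sites, named by nearest gene and number (rows), in the 9 mutants and WT (columns); grey means no peak. FLAG is missing at 11 sites in H455R, whereas SMC3 is present in all 9 mutants at 11 of the 15 sites.

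Around Cdx2, the caudal-type homeobox factor that specifies the trophectoderm, 6 WT FLAG sites flanked the gene (chr5:147300900-147307249, minus strand) and none lay inside it. The strongest, Cdx2-1 at chr5:147293032-147293458, lies 7.44 kb beyond the 3′ end. Its FLAG percentile was 64.7 in R342C, 85.6 in S354F, 84.4 in R377C, 55.2 in R377H, 57.5 in R448Q and 55.8 in H455R, against 91.0 in WT, and R339Q, K365T and Q418R had no peak there. It was the single site of the 11 outside the keratins that H455R kept. Under it lay the strongest CTCF antibody peak near Cdx2, at percentile 99.4 in treated and 99.7 in untreated cells, and SMC3 was present in all 9 mutants and in WT.

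Upstream of Cdx2, 4 sites lay between 12.6 and 24.2 kb from the gene, across the neighbouring genes Urad and Flt3. Cdx2-4 (chr5:147323506-147323881), Cdx2-5 (chr5:147327785-147327903) and Cdx2-6 (chr5:147331449-147331842) were kept in every mutant except H455R. Cdx2-6 had FLAG at percentile 77.5 in R339Q, 75.5 in R342C, 55.7 in S354F, 60.6 in K365T, 89 in R377C, 79.6 in R377H, 90.1 in Q418R and 81.6 in R448Q, against 65.6 in WT. Its SMC3 peak was the strongest near Cdx2, between percentiles 99.1 and 99.7 in the 9 mutants and at 98.5 in WT. H455R thus had no FLAG peak at a site where its SMC3 peak was among the strongest of its list. Cdx2-5 was the only WT FLAG site of the 15 without WT SMC3, and Q418R alone of the mutants had SMC3 there.

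The 2 weakest WT FLAG sites of all 15 were also at Cdx2. Cdx2-2 (chr5:147299260-147299391), 1.51 kb beyond the 3′ end, stood at WT percentile 7.5 and was kept by S354F and R377C only. Cdx2-3 (chr5:147319806-147319968) stood at 10.8 and was missing in R342C, K365T and H455R. A FLAG locus that WT lacked lay beside it at chr5:147320191-147320740, in R339Q, S354F, R377C and Q418R (up to percentile 77.1, in Q418R). SMC3 peaks overlapped this locus in 8 mutants but not in WT. In R342C, S354F and R448Q this was a wide peak that also covered Cdx2-3, where WT had SMC3 too. SMC3 was also found inside Cdx2 close to its start, at chr5:147306796-147307127, in R339Q, R342C, R377C, R377H and R448Q but not in WT; the Cdx2 promoter window itself held no peak of any list.

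**Figure D3:**
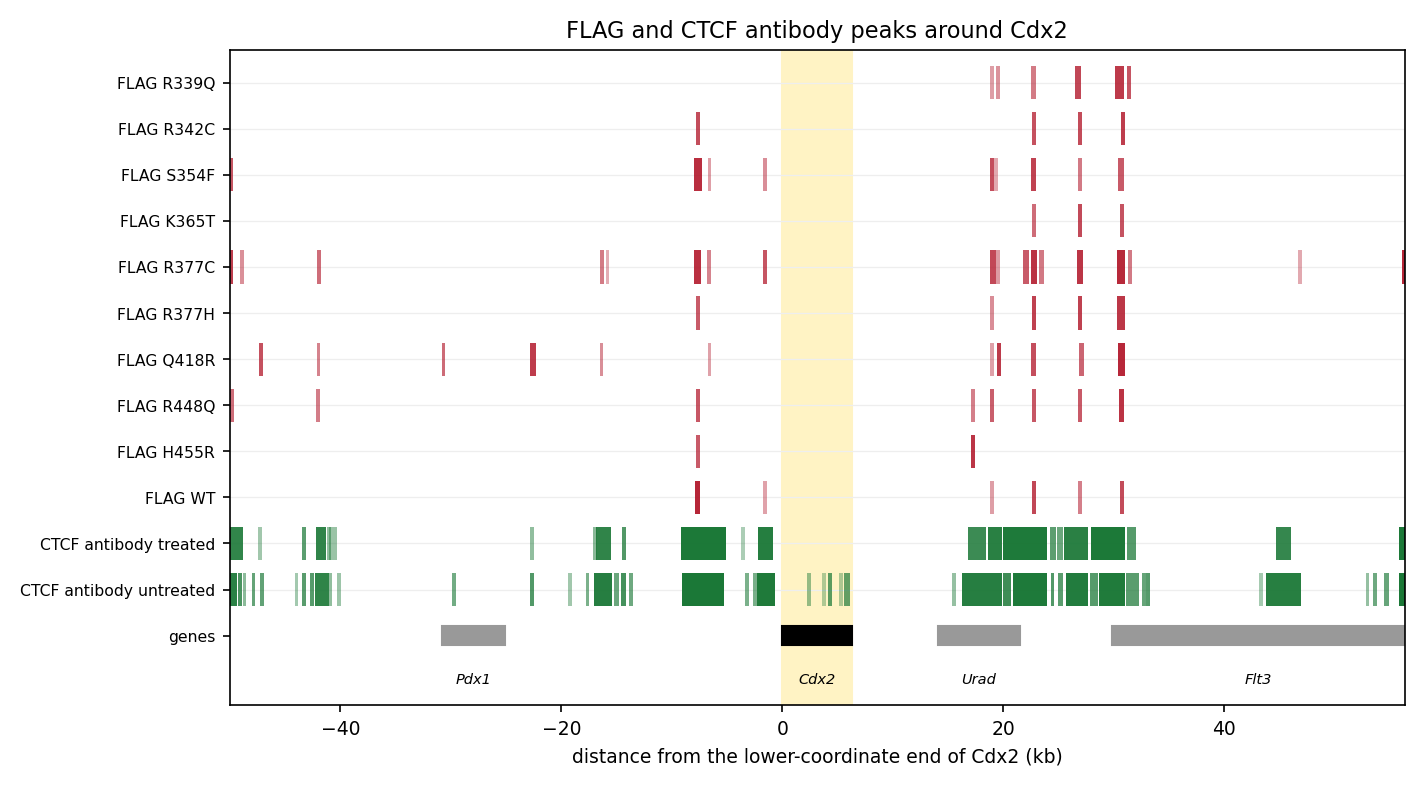
FLAG peaks of the 9 mutants and WT (red) and CTCF antibody peaks of treated and untreated WT cells (green) around Cdx2, by distance in kb from the end of the gene with the lower coordinate; darker means a higher percentile in the list, very narrow peaks are widened to be visible, the shaded band is Cdx2 and grey bars are neighbouring protein-coding genes. H455R has 2 FLAG peaks in the window, against 6 in WT, and no list has a FLAG peak inside the gene.

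At Elf5, an ETS factor that maintains trophoblast stem cells, 3 of 4 WT FLAG sites lay inside the gene (chr2:103412098-103450989, plus strand). Elf5-3 at chr2:103445664-103446191 was the strongest. FLAG there stood at percentile 95.9 in R339Q, 97.3 in R342C, 85.6 in S354F, 78.0 in K365T, 96.4 in R377C, 95.6 in R377H, 38.1 in Q418R and 89 in R448Q, against 94.5 in WT. H455R had no FLAG peak there or at any other Elf5 site, as at the single Tfap2c site. Elf5-4 at chr2:103456655-103456924, 5.67 kb past the 3′ end in the catalase gene Cat, was likewise missing in H455R only.

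Elf5-1 (chr2:103424732-103425300) begins 615 bp beyond the internal promoter printed above. That promoter lies whole within CTCF antibody peaks at percentile 95.8 in treated and 97.8 in untreated cells, and no FLAG or SMC3 list had a peak overlapping it. FLAG at Elf5-1 was absent in K365T, Q418R and H455R, and SMC3 was absent in H455R only. Elf5-2 (chr2:103439741-103439987), at WT percentile 31.0, was missing in R339Q, R342C, K365T, R377H and H455R, and H455R again had no SMC3 peak there. The 4 WT SMC3 peaks near Elf5 were all kept in 8 mutants, and H455R kept 2 of 4. The first Elf5 promoter held no peak of any list.

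Tfap2c encodes the AP-2 gamma factor shared by trophoblast and germ cells. Only 1 WT FLAG site was within 50 kb of its span (chr2:172545678-172558622), Tfap2c-1 at chr2:172501509-172501688, 44.0 kb from the gene. It was kept at percentile 65.3 in R339Q, 49.8 in R342C, 65.5 in S354F and 71.2 in R377C, against 53.2 in WT, and had no FLAG peak in the other 5 mutants. SMC3 was present there in all 9 mutants and WT. Inside Tfap2c, WT cells had no FLAG peak, but R342C, S354F, R377C, R377H and R448Q did at chr2:172550410-172550857. The locus lies under the strongest CTCF antibody peak of the window, at percentile 97.1 in treated and 99.6 in untreated cells, and has SMC3 in all 9 mutants and WT. The mutant FLAG peaks there were weak to middling, from percentile 9.78 in R448Q to 45.1 in S354F. FLAG was also found inside Tfap2c at chr2:172547184-172547473, in R448Q (percentile 51.7) and H455R (26.9). Q418R had a FLAG peak inside the gene at chr2:172547826-172548066 (22.7).

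Near Tfap2c, SMC3 peaks were more numerous in all 9 mutants than in WT relative to list length, whereas at the other 5 genes mutants lay on both sides of WT; the difference between genes was not tested. This gene was picked out after its values were seen. Its window held 41 SMC3 peaks in R339Q, 52 in R342C, 38 in S354F, 43 in K365T, 48 in R377C, 59 in R377H, 18 in Q418R, 61 in R448Q and 49 in H455R, against 20 in WT. Per 100000 peaks of the list this made 39.7 to 49.9 in the mutants, with a median of 47.1, against 27.8 in WT, a ratio of 1.70. The rate was above WT in 9 of 9 mutants, as it was for 5.56% of the protein-coding genes with a WT SMC3 peak and 3.95% of those with at least 10. The 9 comparisons all use the 1 WT list and are therefore not independent. With each list limited to its 42030 strongest peaks, the window held 16 to 24 peaks in mutants, against 11 in WT.

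SMC3 peaks near Tfap2c lay mostly away from CTCF peaks, in mutants and in WT. Neither a FLAG peak of the same line nor a CTCF antibody peak overlapped 61.1 to 83.7% of the SMC3 peaks in this window in mutants, against 80.0% in WT; over all SMC3 peaks these shares were 37.1 to 64.3% in mutants, against 51.9% in WT. When overlapping peaks of the 10 lists were joined, the window held 86 SMC3 loci. Of these, 70 had no WT peak (81.4%), a share near that over all SMC3 loci (78.8%). Of the 70, 19 were found in at least 5 mutants (27.1%), against 7.75% of all SMC3 loci without a WT peak, or 22.1% of the 86, against 6.11% of all SMC3 loci. SMC3 peaks that WT lacked were present in 8 mutants, all but Q418R, at chr2:172520283-172522473, chr2:172575621-172578121 and chr2:172595480-172596486. These reached percentiles 87.9, 88.8 and 86.6 in the mutant in which each was strongest. No other member had more than 2 loci found in at least 5 mutants and not in WT.

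**Figure D4:**
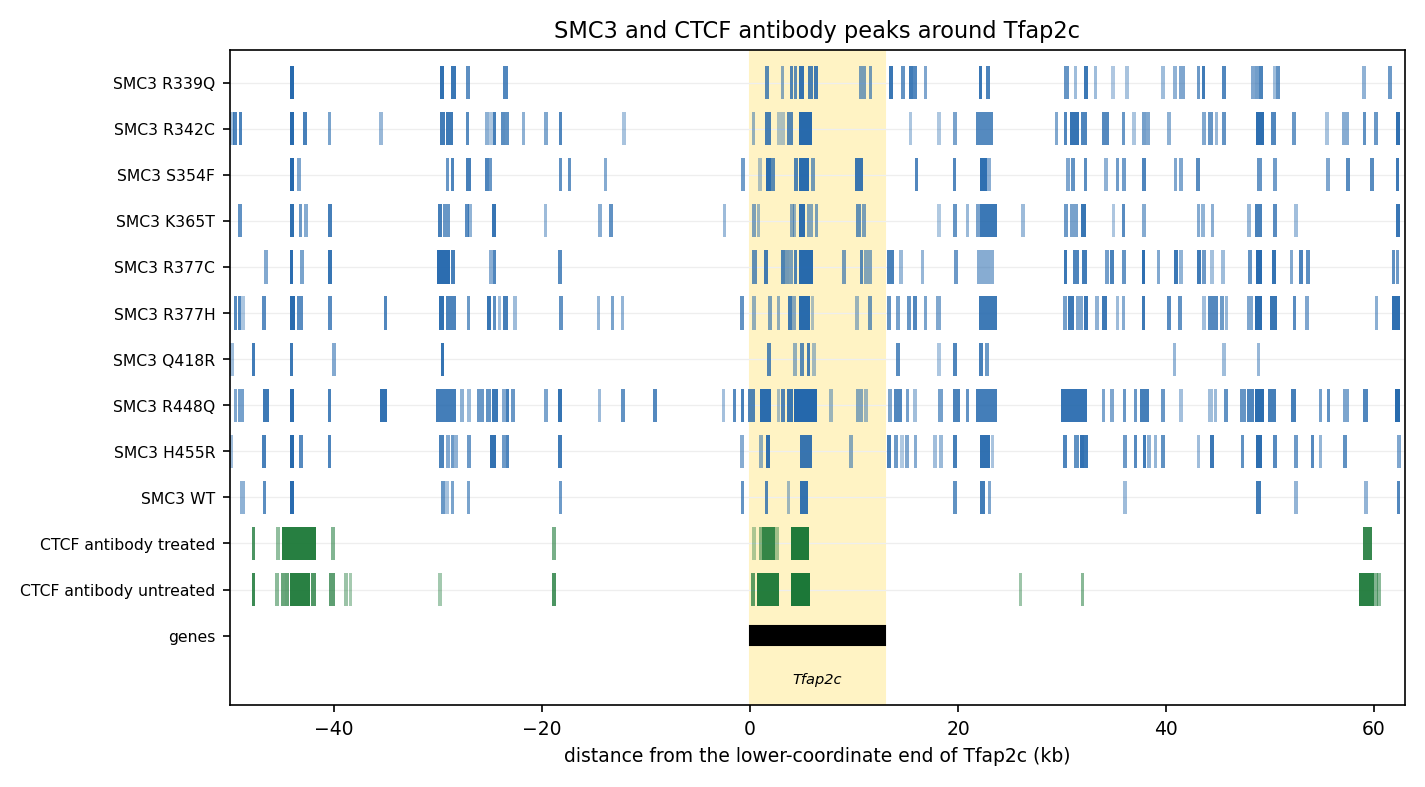
SMC3 peaks of the 9 mutants and WT (blue) and CTCF antibody peaks of treated and untreated WT cells (green) around Tfap2c, by distance in kb from the end of the gene with the lower coordinate; darker means a higher percentile in the list, very narrow peaks are widened to be visible, and the shaded band is Tfap2c. SMC3 peaks spread over the window, 18 to 61 in mutants against 20 in WT, most of them at positions without a CTCF antibody peak.

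Gata3, a zinc-finger factor that promotes trophoblast fate beside Cdx2, had no WT FLAG peak within 50 kb of its span (chr2:9857078-9887953, minus strand). FLAG in mutants was found within that span at chr2:9879576-9880033 in R339Q (percentile 68.3), R342C (12.0), S354F (64.6) and K365T (54.8). This place is upstream of the RefSeq promoter of Gata3 used here, chr2:9878551-9878850 on the minus strand. The place lies at the strongest CTCF antibody peak of the window, at percentile 87.1 in treated and 95 in untreated cells. SMC3 was present there in 8 mutants, Q418R being without, and in WT at percentile 37.8. A second locus, chr2:9808921-9809210 at 47.9 kb from the gene, had FLAG in S354F, R377C and R377H and neither SMC3 nor a CTCF antibody peak in any list. SMC3 peaks were few, 5 to 11 in mutants against 7 in WT, and their median percentile was 13.9 to 51.0 in mutants, against 21.2 in WT.

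The keratin genes are divergent, with their starts facing each other, and in WT the strongest cohesin sites of the 6 genes lay beyond their 3′ ends. In R339Q and Q418R the SMC3 peak at Cdx2-6 ranked above those at Krt18-1 and Krt8-3. Krt18-1 at chr15:102065572-102066091, 33.5 kb past the 3′ end of Krt18 (chr15:102028216-102032026, plus strand), was kept by all 9 mutants. FLAG stood there at percentile 59.7 in R339Q, 82.0 in R342C, 96.6 in S354F, 46.3 in K365T, 74.3 in R377C, 33.6 in R377H, 82.8 in Q418R, 60.8 in R448Q and 45.0 in H455R, against 95.7 in WT. By percentile only S354F thus stood above WT. By rank it did not, at 825 of 24152 peaks, against 663 of 15392 in WT. The SMC3 peak there was rank 8 of 71962 in WT, and in mutants it lay between percentiles 98.6 and 99.9. SMC3 was therefore near the top of every list while FLAG ranged from the lower to the upper part.

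On the other side, 3 sites lay 7.75 to 22.6 kb past the 3′ end of Krt8 (chr15:101996711-102004342, minus strand), all within Krt78, another keratin gene. Krt8-1 at chr15:101973471-101974161 was the strongest WT FLAG site of the 15. It had FLAG at percentile 83.3 in R339Q, 93.3 in R342C and S354F, 97.7 in K365T, 94.3 in R377C, 90.1 in R377H, 98.1 in Q418R, 96.9 in R448Q and 32.1 in H455R, against 97.7 in WT. Krt8-2 (chr15:101983925-101984711) was also kept by all 9, and Krt8-3 (chr15:101988011-101988958) by all but H455R. Krt8-2 and Krt8-3 lie under 1 wide CTCF antibody peak, so they are not separate in those lists. At Krt8-3 the SMC3 peak was rank 48 in WT, and it stood at percentile 98.1 or above in every mutant, H455R included.

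The Krt8 promoter had peaks in mutants that WT lacked. FLAG overlapped it in H455R (percentile 59.4) and Q418R (35.7), and SMC3 in R342C, S354F, K365T, R377H and R448Q, between percentiles 30.4 and 54.2; WT had neither. CTCF antibody peaks covered it at percentile 72.1 in treated and 81.6 in untreated cells. FLAG peaks at promoters were not frequent, overlapping 5.01% of all promoters in Q418R and 0.731% in H455R, against 2.23% in WT. SMC3 peaks at promoters were more common, at 14.5 to 38.3% in the 5 mutants that had a peak at the Krt8 promoter, against 15.0% in WT. The Krt18 promoter overlapped a single peak, SMC3 in H455R at percentile 19.4. The Gata3 promoter overlapped none.

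FLAG peaks that WT lacked made up a smaller share near the 6 genes than over the whole list in 8 of 9 mutants. They were 9 of 21 FLAG peaks in R339Q (42.9%, background 57.4%), 4 of 16 in R342C (25%, 33%), 10 of 25 in S354F (40%, 45.8%) and 1 of 11 in K365T (9.09%, 39%). In R377H they were 3 of 15 (20%, 33.6%), in Q418R 13 of 25 (52%, 70.2%), in R448Q 6 of 19 (31.6%, 40.6%) and in H455R 3 of 7 (42.9%, 58.1%). R377C was the exception, with 22 of 38 (57.9%, 55.9%). Joined across mutants, these peaks formed 45 loci, of which 38 lay at a CTCF antibody peak (84.4%, against 61.8% of such loci in the whole genome). Most, 31, were seen in 1 mutant, 6 in 2 and 8 in at least 3 (17.8%, background 12.4%). Besides the loci already given at Cdx2, Tfap2c and Gata3, those in at least 3 mutants were chr5:147250836-147251227 (S354F, R377C, R448Q), chr5:147258801-147259172 (R377C, Q418R, R448Q) and chr5:147294200-147294375 (S354F, R377C, Q418R) around Cdx2, and chr15:101970651-101970901 (R342C, S354F, R377C) near Krt8. R377C and S354F each took part in 7 of the 8, with FLAG lists of 30462 and 24152 peaks. Q418R, with 30332 peaks, took part in 3, and H455R, with the shortest list, took part in none. A link to list length was not tested. How often each mutant takes part in such loci over the whole genome was not counted, so these counts have no background.

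Mutants kept between 28 and 51 of the WT SMC3 peaks. Of the 61 WT SMC3 peaks near the 6 genes, R448Q kept 51 (background over all WT SMC3 peaks 77.8%), R342C 48 (73.3%), R377C 47 (60.7%), R377H 46 (69%), K365T 43 (57.8%), H455R 42 (60.2%), S354F 41 (53.7%), R339Q 35 (50.5%) and Q418R 28 (29.3%). Pooled over the 6 genes, the share exceeded the background in each mutant. The background lay below the Wilson interval in S354F (54.7 to 77.7%), K365T (58.1 to 80.4%), R377C (65.1 to 85.8%) and Q418R (34.0 to 58.3%). Not every gene shared this excess. At Krt8 and Krt18 together the share was below the background in R448Q (55.6%), R342C (61.1%), R377H (55.6%), S354F (50%), K365T (55.6%) and R339Q (50%). There it was above the background in R377C (77.8%), Q418R (50%) and H455R (66.7%). At Gata3, with only 7 WT SMC3 peaks, the share was below the background in R342C, R377C, R377H, Q418R and R448Q and above it in the others. At Cdx2 and Elf5 it was below the background in H455R only (50% at either gene), and at Tfap2c in R339Q only (45%). The median WT SMC3 peak near the genes stood at percentile 55.8 of its list. In total, 18 of the 61 peaks were kept in all 9 mutants (29.5%), against 17.1% of all WT SMC3 peaks. The order of the mutants followed list length at its ends, with the longest SMC3 list in R448Q and the shortest in Q418R. Peak names of the SMC3 lists also carry the tags b1, b2 or b3, whose meaning the sources do not state. WT, R342C, K365T, R377H, R448Q and H455R carry b1 alone, and within these 5 mutants the mean share was 75.4%, against 69.4% over all 9.

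Whether SMC3 went with FLAG can be read at the 14 sites with both in WT. Over the 9 mutants, SMC3 was present in 95 of 95 cases in which the mutant kept FLAG and in 27 of 31 in which it did not (100% and 87.1%). The 4 missing cases were Elf5-1, Elf5-2 and Cdx2-2 in H455R and Cdx2-2 in Q418R. These sites had the lowest WT SMC3 percentiles of the 14, at 84.8 (Cdx2-2), 88.6 (Elf5-1) and 89.2 (Elf5-2). All others stood at 93.2 or above. Whether the missing SMC3 went with site strength or with FLAG was not tested, and no share over all sites is split by FLAG here. H455R had no FLAG peak at 10 of the 14 and retained SMC3 at 7 of these. The same 14 sites enter for every mutant, and a missing FLAG peak may be a peak below the caller's limit, so these counts are not of independent events. Counting all 14, SMC3 was present at 13 in Q418R and 11 in H455R, where the share over the 12503 WT FLAG peaks with WT SMC3 was 74.1% and 77.9%. It was present at 14 of 14 in the other 7 mutants, where that share was 78% in R339Q, 96.6% in R342C, 81.4% in S354F, 89.9% in K365T, 87.3% in R377C, 91.3% in R377H and 97.9% in R448Q.

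**Figure D5:**
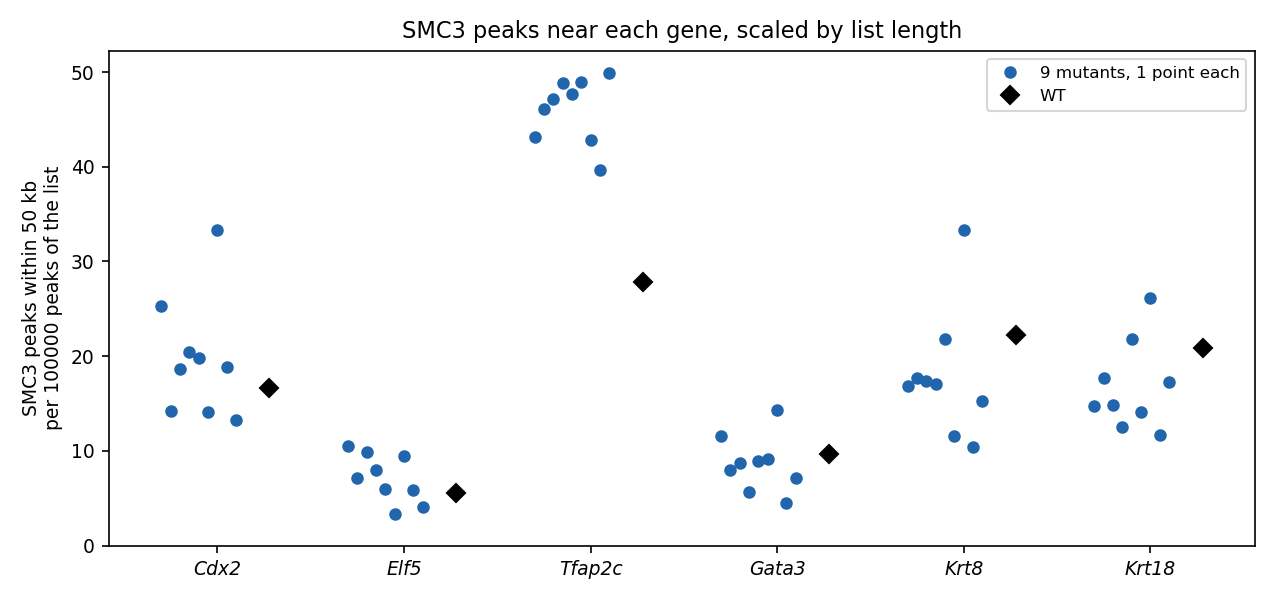
SMC3 peaks within 50 kb of each gene per 100000 peaks of the list, 1 blue point per mutant and a black diamond for WT. At Tfap2c the mutants stand at 39.7 to 49.9, all above WT at 27.8; at the other 5 genes mutant points lie on both sides of WT.

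Per gene, the SMC3 rate of the other members lay on both sides of WT. At Krt8 it was below WT in 8 of 9 mutants (median 17.0 per 100000, against 22.2 in WT), and at Krt18 and Gata3 in 7 of 9. At Elf5 it was above WT in 7 of 9 and at Cdx2 in 6 of 9. These counts rest on as few as 4 peaks a list.

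The CTCF antibody lists show which peaks of untreated cells were also called in treated cells with the induced WT transgene. The antibody also sees any endogenous CTCF left. Over the genome the treated list held 116973 peaks and the untreated list 175815, and overlap of called peaks does not measure occupancy. Treated cells had 70 CTCF antibody peaks in the windows, against 116 in untreated cells, and 66 of those 116 (56.9%, Wilson 47.8 to 65.5%) overlapped a treated peak, the same share as over all untreated peaks (56.9%). In the other direction, 63 of the 70 treated peaks (90.0%) overlapped an untreated peak, against 91.7% of all. By gene, the share of untreated peaks with a treated peak was 84.6% at Elf5 (11 of 13), 70.0% at Gata3 (7 of 10), 63.2% at Tfap2c (12 of 19), 50.0% at Krt18 (13 of 26), 47.6% at Krt8 (10 of 21) and 45.7% at Cdx2 (21 of 46). Untreated peaks without a treated partner were the weaker ones, with a median percentile of 24.6, against 74.0 for those with 1. The strongest of them inside a member was at chr5:147305027-147305451 in Cdx2, at percentile 55.8.

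A list of 20 other trophoblast genes (Eomes, Tead4, Hand1, Ascl2, Gcm1, Ets2, Tfap2a, Gata2, Krt7, Krt19, Fgfr2, Bmp4, Cdh3, Esrrb, Tpbpa, Plac1, Hand2, Id2, Cited1 and Syna) gave 38 WT FLAG sites at 16 of the genes. Mutants kept 37 of them in S354F and R377C, 30 in R342C and R377H, 29 in R448Q, 28 in Q418R, 26 in R339Q, 25 in K365T and 5 in H455R. The shares were 13.2% in H455R and 65.8 to 97.4% in the others. They were near the background over all WT FLAG peaks in R448Q (76.3%, against 75.2%) and H455R (13.2%, against 10.5%) and above it in the others. Against all WT FLAG peaks with SMC3 and a treated CTCF antibody peak, they were below in R342C, R377C, R377H and R448Q and above in the others. The 38 sites were not limited to that kind. Krt19, a keratin gene, and Id2, an inhibitor of basic helix-loop-helix factors, each had 1 WT FLAG site that all 9 mutants kept. Krt7 had 1 that none kept. Of their 259 WT SMC3 peaks, mutants kept 77 (Q418R) to 203 (R342C). These shares were near the background over all WT SMC3 peaks in Q418R (29.7%, against 29.3%), K365T (60.2%, against 57.8%) and R448Q (76.8%, against 77.8%), and above it in the other 6 mutants. An SMC3 rate above WT in all 9 mutants, as at Tfap2c, was found at 1 of the 20, Cdh3, the gene of P-cadherin.

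Genes elsewhere whose peak counts over the 22 lists were nearest to each member were sought by the sum of absolute differences. For Cdx2 (320 peaks in all) they were Pcsk4 and Ankrd13d with sums of 54 and 57, against a median of 222 over all protein-coding genes. For Elf5 they were Atp4b and Serpinb1c (25 each, median 109), for Tfap2c Tnfrsf8 and Dedd2 (71 and 76, median 388) and for Gata3 Mcm8 and Rab14 (20 and 22, median 98). For Krt8 they were Zfp169 and Rabggta (36 and 41, median 167), and for Krt18 Crip1 and Dnaaf4 (39 and 40, median 163). Lists share length across genes, so the likeness describes counts only.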

How the data were processed

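Peak lists of 22 groups were used, each pooling 2 replicates; 2 groups (FLAG in untreated WT cells, IgG) were not analysed here. The submitters' processing notes name mm10 as build and Trim Galore, Bowtie2, MACS2 and deepTools as tools; versions are not given in the sources. The lists have 5 columns and no header. In the last stands a deposited score from the authors' peak caller, of unstated kind, so it was used only as a percentile within its list. FLAG lists repeat an interval per summit, and repeats were merged with the highest score. Peak names in FLAG lists carry other replicate numbers than the list titles, and library codes differ between FLAG and SMC3 lists of some genotypes. Both Q418R lists have 42030 lines, with differing intervals; the cause is not given in the sources used here. Depth is unknown.

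Gene spans and promoters came from RefSeq tables of GRCm38.p6, with strand from the promoter table. All 6 genes matched a span and 5 a promoter. Overlaps of at least 1 bp were computed with Python 3.11.15, numpy 2.4.6 and pandas 2.3.3, and tested on simulated data and against bedtools 2.31.1. Wilson intervals (95%) came from statsmodels 0.14.6 and figures from matplotlib 3.10.9. Files hold no replicates apart, so no test was made. The genes, lists and the naming rule were chosen with earlier results of these data known. The rule names every WT FLAG site in the windows, mutant FLAG loci outside WT FLAG in at least 3 mutants, and per gene the 2 genes with the nearest counts; other loci and genes given by name were chosen after their values were seen. Alternatives were the upper 50% of each list, overlap of 50% in both directions, equal numbers of top peaks per antibody, a match within 500 bp, windows of 10 and 100 kb, intervals as deposited, and leave-one-out over mutants. Mutants whose SMC3 list is tagged b1 alone, the background with SMC3 and a treated CTCF antibody peak, and all alternatives for the Tfap2c SMC3 rate were chosen after seeing the data.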

Additional observations from a re-analysis of the deposited data

How the results depend on the processing

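No paired analysis was possible because each list pools both replicates, and leaving out a replicate was not possible for the same reason. The 15 WT FLAG sites became 6 with equal numbers of top peaks, 7 in a 10 kb window and 23 with intervals as deposited. The mean share of these sites kept over the 9 mutants (76.3%) was 51.1% with a reciprocal overlap of 50%, 66.7% with equal numbers of top peaks and 66.7% in a 10 kb window. It was 66.7% in the mutants whose SMC3 list is tagged b1 alone, H455R among them, and FLAG lists themselves carry no such tag. Leaving out 1 mutant at a time gave 73.3 to 82.5%. The mean share of WT SMC3 peaks kept (69.4%) was 46.3% with a reciprocal overlap of 50%, 77.2% with a match within 500 bp and 75.4% in mutants tagged b1 alone, and leaving out 1 mutant gave 67.6 to 72.3%. The share of untreated CTCF antibody peaks with a treated peak was 35.3% with a reciprocal overlap of 50%, 71.4% in the upper 50% of each list, 74.4% with equal numbers of top peaks and 75% within 500 bp. SMC3 at sites with FLAG kept exceeded that at sites without by 12.9 percentage points. This was 0.0 with equal numbers of top peaks, and 4.76 to 16 when 1 mutant was left out, the lowest without H455R. The Tfap2c SMC3 rate over WT (1.70) stayed between 1.53 and 1.76 in the 15 alternatives run, above WT in 8 of 9 mutants in a 10 kb window. Of 126 alternatives for the 18 shares of single mutants, 102 stayed within the Wilson interval and 24 did not. Depth limits every absence: a missing peak is a peak that the caller did not report.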
